A study of Mus musculus with 6 samples.

Results

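The genes described here are 40 antiviral effectors that type I interferon switches on, measured in naive B cells from the spleens of C57BL/6 mice by sequencing of mRNA. They were chosen by name as interferon-stimulated effectors, leaving out the sensors of foreign nucleic acid, the STAT factors and the guanylate-binding proteins. Earlier results of these data were known when they were chosen. All 40 names were found among the 41053 gene names of the count table. The study compared mice labelled TET2 Knock-Out with mice labelled TET2 Wild-Type, asking which genes differ when the cell lacks TET2, one of the enzymes that convert methylcytosine to its hydroxylated form. Each genotype had 3 libraries, numbered 2, 3 and 4, of cells that received no treatment. The labels used here do not state how Tet2 was disrupted, in which cells, the age of the animals or whether 1 library stands for 1 mouse. The p-values therefore reflect only how far these libraries vary, which may be technical.

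Type I interferons are secreted when a cell senses viral nucleic acid. They bind a receptor present on nearly all cells, and the kinases below it activate a complex of transcription factors, ISGF3, that binds a DNA element, the interferon-stimulated response element (ISRE), near the start of a large set of genes. The proteins made from these genes block virus entry, degrade or edit foreign RNA, halt translation and tag proteins with the ubiquitin-like ISG15. In resting lymphocytes a low tonic signal keeps many of these genes at a basal level, and some are also read at a high level without interferon.

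Library totals ranged from 35101788 to 45401781 counts. Levels between libraries are given as CPM (counts scaled to a common TMM-normalized library size) and levels between genes as RPKM, which is CPM per kilobase of summed exon length. B-cell markers were high in every library (9 genes, summed 14620 to 16940 CPM). Among markers of other cells, 8 neutrophil genes summed to at most 0.843 CPM and 7 natural killer genes to at most 2.31 CPM. Over the whole marker lists, summed levels ranged from 26.8 to 39.4 CPM in knockout and 31.0 to 39.2 CPM in wild type for 6 plasmacytoid dendritic genes. Nearly all of it was Pacsin1 (25.7 to 37.5 CPM over all libraries), while Siglech was at 0.278 to 0.674 CPM. The summed levels ranged from 28.0 to 38.2 CPM and from 31.3 to 36.1 CPM for 9 monocyte or macrophage genes. Within them, Lyz2 was lower in every knockout library (4.93 to 6.55 CPM) than in every wild-type library (7.34 to 10.1 CPM). Emr1 was higher in every knockout library (10.8 to 14.6 CPM against 8.52 to 9.82 CPM). For 10 T-cell genes they ranged from 50.6 to 67.8 CPM and from 48.7 to 53.0 CPM, nearly all of it Lck, with Cd3e at most at 0.0722 CPM. For 6 plasma cell genes they ranged from 583 to 649 CPM and from 552 to 663 CPM, and for 5 stromal genes, nearly all of it Pecam1, from 309 to 424 CPM and from 324.5 to 381 CPM. The summed level of 6 dendritic cell genes was low but higher in every knockout library (2.77 to 3.64 CPM) than in every wild-type library (2.20 to 2.55 CPM), and its part in the results below was not tested. No tested gene of any marker list passed edgeR's threshold, where 0.184% of all genes tested were called higher and 0.221% lower. Low genes were often not tested. Tested were 0 of 8 neutrophil, 2 of 7 natural killer, 3 of 10 T-cell, 3 of 6 plasmacytoid dendritic and 3 of 6 dendritic cell genes. In both genotypes library 4 differed from the others: the chaperone Hsph1 was at 216 and 215.5 CPM in them and between 53.9 and 77.5 CPM in the other 4 libraries. The knockout libraries also held transcripts of 4 Y-linked genes (summed 100.9 to 188.3 CPM, against at most 0.227 CPM in wild type) and less Xist (802 to 887 CPM against 1443 to 1537 CPM), so genotype and sex-linked expression cannot be told apart. Every knockout library held both Y-linked transcripts and Xist, and whether it pooled animals of both sexes was not tested.

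In the knockout, Tet2 itself measured 59.4, 64.8 and 50.04 CPM (libraries 2, 3 and 4 in turn), and in wild type 74.7, 83.3 and 56.9 CPM. The genotypes overlapped, and the log2 change of −0.30 (SE 0.14) did not pass (edgeR adjusted p = 0.408); with the batch term described below it was −0.29 (edgeR adjusted p = 0.0420). The counts cover all exons and the deleted part is not stated, so this level does not check the labels.

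Most of the antiviral genes lay somewhat higher in knockout, and 2 of them passed the test. Ifi44 and Ifi44l, neighbouring paralogs that are among the most widely used markers of interferon exposure, rose 2.20-fold and 1.91-fold. The median log2 change over the 39 genes tested was 0.33, where the median of all 13604 genes tested was −0.01. The change was positive for 37 of the 39, which 48.8% of all genes tested also showed, and 24 of the 39 were higher in every knockout library than in every wild-type library, against 10.2% of all genes tested. None was lower in every knockout library (8.28% of all genes tested). A difference of at least 1.5-fold was found for 9 of the 39 (2.71% of all genes tested), and of at least 2-fold for 1, Ifi44 (0.669%). Since the genes were chosen with earlier results of these data known, these shares describe the list and do not test it. Because the RNA comes from bulk cells, more expressing cells and more RNA per cell cannot be told apart.

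The test was edgeR's quasi-likelihood F test with Benjamini-Hochberg adjustment over all 13604 genes. It called 2 of the 39 higher and 0 lower, where 0.184% of all genes tested were called higher and 0.221% lower, and 25 of the 39 had an unadjusted p under 0.05 (13.4% of all genes tested in either direction, 7.85% in the higher direction). The number called higher moved with the libraries used. It was 0 without knockout library 2 (0.065% of all genes tested in that fit), without knockout library 3 (0.101%), without wild-type library 2 (0.0723%) and without wild-type library 3 (0.0653%). It was 3 without knockout library 4 (0.424%) and 15 without wild-type library 4 (4.53%). DESeq2 called 13 (1.45% of its genes), limma-voom 0 (0.147%), and edgeR with an added batch term that sets library 4 of each genotype apart called 13 (2.59%). DESeq2 and the batch term shared 10 genes, 76.9% of each set. With the batch term the genes called were Ifi44, Ifi44l, Oas1a, Oas3, Oasl2, Ifit1, Ifit2, Mx1, Rsad2, Rtp4, Bst2, Lgals3bp and Slfn2.

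**Figure D1:**
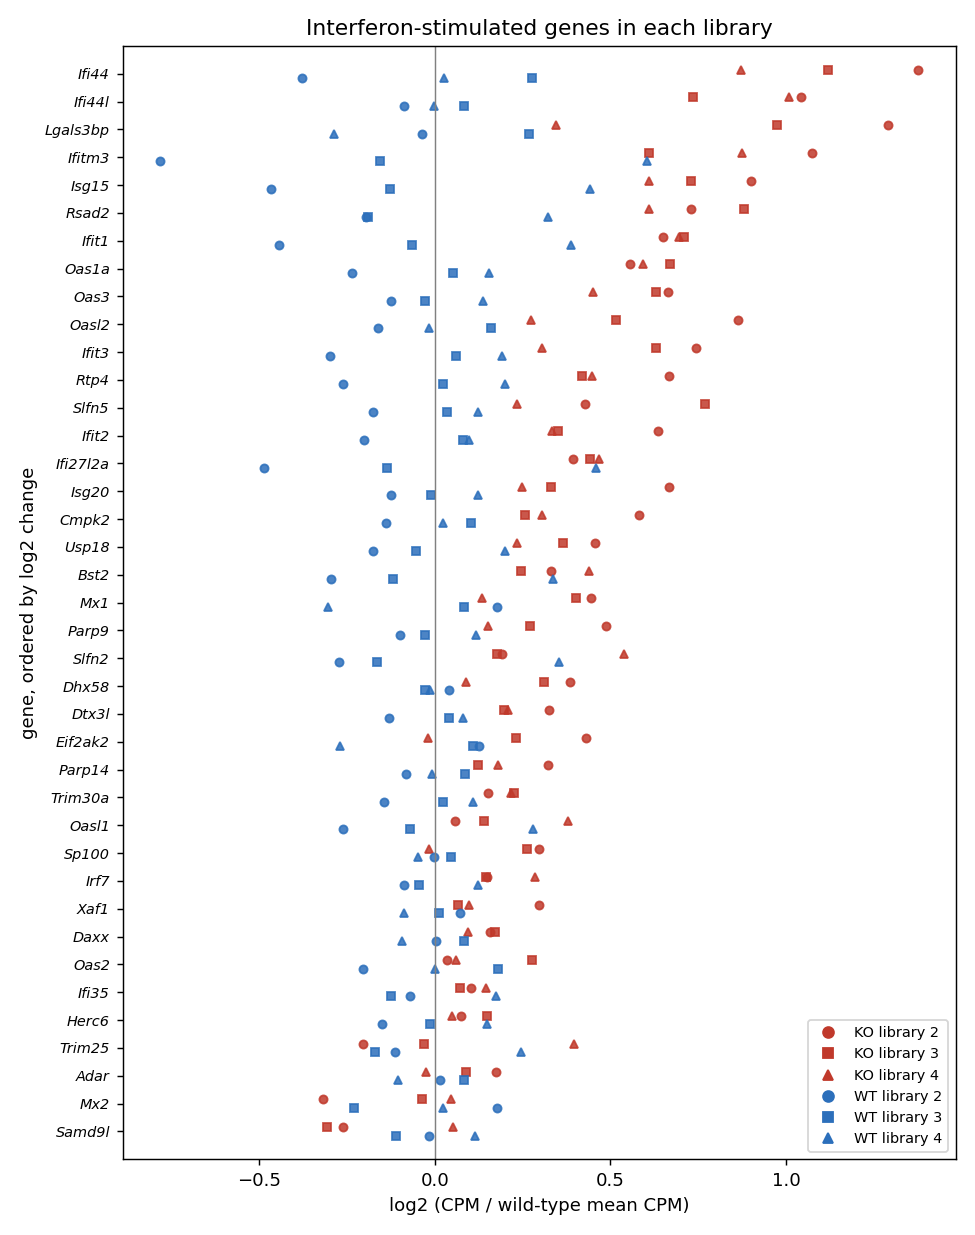
Each row is 1 of the 39 tested antiviral genes and each point 1 library, placed by the log2 ratio of its CPM to the wild-type mean of that gene (red, knockout; blue, wild type; circle, square and triangle, libraries 2, 3 and 4). For 24 genes every red point lies to the right of every blue point, and wild-type library 4 is often the blue point nearest to the red ones.

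The difference was not spread evenly over the libraries. The mean log2 deviation of the 39 genes from their 6-library mean was 0.26, 0.19 and 0.14 in knockout libraries 2, 3 and 4. In wild type it was −0.33, −0.18 and −0.07. All knockout values thus lay above all wild-type values, with wild-type library 4 closest to knockout. Wild-type library 2 held the lowest wild-type level for 27 of the 39 genes (29.5% of all genes tested), and wild-type library 4 the highest for 24 (41% of all genes tested). Knockout library 2 held the highest knockout level for 22 (31.8% of all genes tested).

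Ifi44 measured 23.3, 19.6 and 16.5 CPM in the knockout, in the order of libraries 2, 3 and 4 used from here on, and 6.93, 10.9 and 9.17 CPM in wild type. Every knockout library was above every wild-type library, with a log2 change of 1.14 (SE 0.18, edgeR adjusted p = 0.0432). The gene lies on chromosome 3 (151730922 to 151749947, minus strand, GRCm38). Ifi44l lies on the same strand, separated from it by 9693 bases (151759641 to 151762906), with 486 bases of annotated exon. Its level was 6.95, 5.61 and 6.77 CPM in knockout and 3.17, 3.57 and 3.37 CPM in wild type. The spread within wild type was narrow, and the log2 change was 0.93 (SE 0.15, edgeR adjusted p = 0.0435). Of 17 alternative fits, Ifi44 was called in 11 (adjusted p from 1.3e-06 to 0.249) and Ifi44l in 10 (1.64e-05 to 0.287), always higher. Of the 6 fits that left out 1 library, Ifi44 passed without knockout library 4 and without wild-type library 4, and Ifi44l passed without wild-type library 4. These are similar genes, and reads shared by paralogs may have been lost or split, as for the OAS, IFIT, Mx and Schlafen families below.

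Promoters were read from RefSeq (GRCm38.p6) as windows from 250 bases before to 50 bases after an annotated start, which were given for 31 of the 40 genes. The core of the ISRE was searched on both strands as GAAA, any 2 bases and GAAA. At least 1 match was found for 12 of the 31 genes (38.7%), and for 3.99% of all 27025 genes with a window. The gamma-activated sequence (GAS), searched as TTCNNNGAA, which reads the same on both strands, was found for 8 of the 31 (25.8%) and for 9.55% of all genes. In Bst2 and Ifitm3 a match of one motif shares bases with a match of the other. Of the 10 genes with the largest changes, the 6 with a match before the start are shown so that the repeated elements can be seen. Their upstream stretches run 5′ to 3′ along the strand of the gene, with matches to the ISRE core on either strand in capitals.
Isg15: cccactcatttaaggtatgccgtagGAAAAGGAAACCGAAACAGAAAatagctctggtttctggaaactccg
Ifit1: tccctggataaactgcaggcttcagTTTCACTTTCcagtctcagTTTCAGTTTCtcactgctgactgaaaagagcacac
Ifit3: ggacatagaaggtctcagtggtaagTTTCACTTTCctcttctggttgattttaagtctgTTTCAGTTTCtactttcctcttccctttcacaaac
Oas1a: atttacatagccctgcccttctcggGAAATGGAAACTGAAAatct
Oas3: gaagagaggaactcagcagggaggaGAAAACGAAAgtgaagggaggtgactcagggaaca
Rsad2: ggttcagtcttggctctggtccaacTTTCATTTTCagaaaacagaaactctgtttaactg

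The Isg15 stretch (chr4:156200850-156200921, minus strand) holds 3 overlapping matches, of which the outermost begin 78 and 66 bases before the start. Ifit1 (chr19:34640760-34640838, plus strand) and Ifit3 (chr19:34583348-34583441, plus strand) hold 2 matches each, in the opposite orientation. In Oas1a (chr5:120907526-120907570, minus strand) the match nearest to the start begins 14 bases before it, and in Oas3 (chr5:120777700-120777759, minus strand) the match begins 75 bases before. In Rsad2 (chr12:26456538-26456597, minus strand) it begins 120 bases before. The 11 tested genes with a match had a median log2 change of 0.59 (range 0.20 to 0.88), and the 19 without one had a median of 0.20 (range −0.16 to 1.14). No match lay in the windows of Ifi44, Ifi44l and Lgals3bp, and those of Ifitm3 lay after the start. These genes had the largest changes of all. For the GAS motif the medians were 0.38 over 8 genes with a match and 0.35 over 22 without. These are descriptions of letters in a fixed window.

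Synthetases of the OAS family sense double-stranded RNA and make short oligoadenylates that activate RNase L, which cuts RNA. None of the 5 passed the test, where 0.184% of all genes tested were called higher. The log2 changes ran from 0.13 for Oas2 to 0.61 for Oas1a. Oas1a was at 14.5, 15.7 and 14.9 CPM in knockout and 8.36, 10.2 and 11.0 CPM in wild type (SE of the change 0.13, edgeR adjusted p = 0.114). Oas3 was at 33.7, 32.9 and 29.0 CPM in knockout and 19.5, 20.9 and 23.4 CPM in wild type (log2 change 0.59, SE 0.10, edgeR adjusted p = 0.0598). Every knockout library was above every wild-type library for both genes. With the batch term both passed (edgeR adjusted p = 0.0166 for Oas1a and 0.00859 for Oas3, over all alternatives 0.000711 to 0.42 and 1.96e-05 to 0.376). Neighbouring genes of the family did not have equal values. Oas2, whose gene is separated from that of Oas3 by 3244 bases, overlapped between genotypes at 31.0, 36.6 and 31.5 against 26.2, 34.2 and 30.2 CPM. Oasl2, an OAS-like gene, differed by 0.57 (SE 0.15) with no overlap of the genotypes, and Oasl1, which restrains translation of Irf7 in mice, by 0.20 (SE 0.14) with overlap.

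The IFIT proteins bind foreign RNA ends and keep them from being translated. Their 3 genes lie together on chromosome 19 (34550694 to 34650009). All 3 were higher in every knockout library than in every wild-type library, against 10.2% of all genes tested. Ifit1 was at 10.5, 10.9 and 10.8 CPM in knockout and 4.92, 6.39 and 8.74 CPM in wild type (log2 change 0.69, SE 0.19, edgeR adjusted p = 0.204). Its knockout libraries varied little (CV 2.12%), while wild type spread widely (CV 28.9%). Ifit3 was at 21.6, 19.9 and 15.9 CPM in knockout and 10.5, 13.4 and 14.7 CPM in wild type (0.57, SE 0.16, edgeR adjusted p = 0.199). Knockout library 4 and wild-type library 4 lay close together for this gene. Ifit2 differed by 0.45 (SE 0.12, edgeR adjusted p = 0.189).

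Mx proteins are dynamin-like GTPases that trap viral nucleoproteins, and the Mx1 gene of C57BL/6 mice carries an internal deletion. The 2 genes stood 72400 bases apart on chromosome 16 and differed from each other in their values. Mx1 differed by 0.33 (SE 0.14, edgeR adjusted p = 0.357) with overlap of the genotypes. Mx2 was at 7.45, 9.05 and 9.58 CPM in knockout and 10.5, 7.91 and 9.42 CPM in wild type (−0.09, SE 0.15, edgeR adjusted p = 0.821). It was 1 of 2 tested genes with a negative change.

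ISG15 is attached to new proteins during infection, and a set of enzymes serves this system or the related ubiquitin and ADP-ribose marks. None of 7 such genes passed the test, where 0.184% of all genes tested were called higher and 0.221% lower. All 7 changes were positive (48.8% of all genes tested), and the median was 0.25. Isg15 was at 14.4, 12.7 and 11.7 CPM in knockout and 5.57, 7.05 and 10.5 CPM in wild type. The genotypes did not overlap, although wild-type library 4 came close to knockout library 4, and the log2 change was 0.76 (SE 0.21, edgeR adjusted p = 0.204). Usp18, which removes ISG15 and blocks signalling at the receptor, differed by 0.36 (SE 0.12, edgeR adjusted p = 0.275). Herc6, the main ISG15 ligase of mice, differed by 0.09 and Trim25, a ubiquitin ligase for the sensor RIG-I, by 0.08, with overlap for both. Parp9 and its partner Dtx3l, a ubiquitin ligase, are read from facing strands and share exon bases, so their counts are not independent. They differed by 0.31 and 0.25, and Parp14, an ADP-ribosyltransferase nearby, by 0.21. These 3 were higher in every knockout library than in every wild-type library, against 10.2% of all genes tested.

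Of 4 genes whose products act on RNA or restrain sensing, none passed the test, where 0.184% of all genes tested were called higher. Their median log2 change was 0.25. Isg20, an exonuclease, differed by 0.43 and Dhx58 (LGP2), a helicase that tunes RNA sensing, by 0.27, with no overlap of the genotypes. Eif2ak2 (PKR), the kinase that halts translation on double-stranded RNA, differed by 0.23 with overlap. Adar, which converts adenosine to inosine, was at 309, 291.5 and 269 CPM in knockout and 277, 290.0 and 255 CPM in wild type (0.08, SE 0.08, edgeR adjusted p = 0.689). The genotypes interleaved for Adar. The exons of Dhx58 and Eif2ak2 overlap those of antisense genes, which the counting did not separate, as do those of Irf7, Ifi35, Oasl1, Slfn5 and Cxcl10.

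Viperin, the product of Rsad2, makes a nucleotide that ends viral RNA chains early, and Cmpk2 is a nucleotide kinase whose gene lies next to it on chromosome 12. Rsad2 was at 7.83, 8.69 and 7.20 CPM in knockout and 4.12, 4.14 and 5.91 CPM in wild type, without overlap (log2 change 0.75, SE 0.18, edgeR adjusted p = 0.154). Cmpk2 differed by 0.39 (SE 0.11, edgeR adjusted p = 0.215), also without overlap. Neither passed the test, and Rsad2 did with the batch term (edgeR adjusted p = 0.0286, from 0.000239 to 0.606 over all alternatives).

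Membrane and secreted products held several of the larger changes. Lgals3bp, a secreted glycoprotein that binds galectins, was at 56.5, 45.5 and 29.4 CPM in knockout and 22.6, 27.9 and 19.0 CPM in wild type. The genotypes did not overlap, knockout library 4 lay near wild-type library 3, and the log2 change was 0.92 (SE 0.23, edgeR adjusted p = 0.167). Ifitm3, which blocks fusion of viruses in endosomes, was low, at 2.29, 1.66 and 1.996 CPM in knockout and 0.634, 0.978 and 1.66 CPM in wild type. The lowest knockout and the highest wild-type library were nearly equal (0.88, SE 0.33, edgeR adjusted p = 0.313). Rtp4, a chaperone of membrane receptors, differed by 0.52 without overlap. Bst2 (tetherin), which holds budding virions at the cell surface, differed by 0.34, and Ifi27l2a, a small protein strongly induced by interferon, by 0.44. Both overlapped, since wild-type library 4 reached 42.4 CPM for Bst2 and 144 CPM for Ifi27l2a, within the range of the knockout libraries.

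Cxcl10, a chemokine that draws cells bearing CXCR3, did not pass the filter on low counts. It had 28, 13 and 9 counts in knockout and 5, 9 and 5 counts in wild type, so the count of knockout library 4 equalled the highest wild-type count, while on the CPM scale every knockout library was above every wild-type library. The ratio of summed counts, scaled by library size, was 2.59 (95% exact interval 1.5 to 4.65, counting error only). It shares exon bases with Art3 on the opposite strand.

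Several of the most abundant of these genes had overlapping genotypes. Per length, Ifi27l2a was the highest in wild type (226 ± 76.9 RPKM, SD, n = 3), followed by Slfn2 (174 ± 42.3) and Samd9l (170.4 ± 13.4), and these levels overlapped within their spread. Sp100 came next at 79.4 ± 2.60 RPKM. The median of the 39 tested genes in wild type was 9.57 RPKM, where all genes tested had a median of 7.01, and the lowest was Rsad2 at 1.09. The 23 genes above 10 RPKM over all libraries had a median log2 change of 0.27, and the 16 at or under it 0.51. Over all genes tested the same medians were 0.02 and −0.03.

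**Figure D2:**
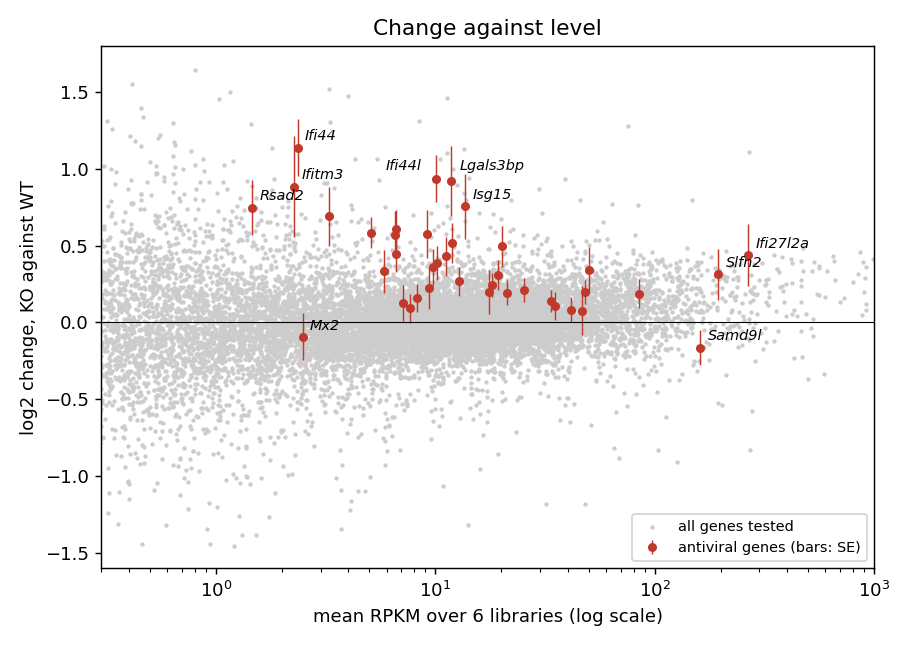
The log2 change between genotypes is plotted against the mean RPKM over the 6 libraries on a log axis, in red with SE bars for the 39 antiviral genes and in grey for all genes tested, of which 1397 lie outside the plotted range. Ifi44, Ifi44l, Lgals3bp and Ifitm3 stand highest among the red points, while Samd9l, at 170.4 RPKM in wild type, lies under 0.

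Samd9l, which slows translation and cell growth, was at 771, 748 and 958 CPM in knockout and 915, 858 and 1002 CPM in wild type. The genotypes overlapped through knockout library 4, and the log2 change was −0.16 (SE 0.11, edgeR adjusted p = 0.552). Slfn2, a Schlafen protein needed for lymphocyte quiescence, was at 331, 327.5 and 421 CPM in knockout and 239.9, 258.5 and 370.0 CPM in wild type (0.31, SE 0.16, edgeR adjusted p = 0.444). Libraries 4 of both genotypes were the highest of their group for both genes. With the batch term Slfn2 passed (edgeR adjusted p = 0.0224, from 0.000275 to 0.876 over all alternatives). Slfn5 differed by 0.50 without overlap.

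Sp100, a scaffold of PML nuclear bodies, was at 737, 719.5 and 593 CPM in knockout and 598, 619.8 and 581 CPM in wild type (0.19, SE 0.10, edgeR adjusted p = 0.429), with knockout library 4 inside the wild-type range. Daxx, a histone chaperone of the same bodies, differed by 0.14, and Xaf1, which favours cell death, by 0.16. Irf7, the factor that drives interferon alpha genes, was higher in every knockout library, but by 0.19 (SE 0.08, edgeR adjusted p = 0.363). Of the remaining cytoplasmic proteins, Ifi35 differed by 0.11 and Trim30a, a brake on Toll-like receptor signalling, by 0.20.

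Libraries 2 and 3, set against each other by genotype, gave a median log2 change of 0.44 over the 39 genes. The pair numbered 4 gave 0.16. The change was positive for 37 and 36 of the genes, where 49.2% and 49.9% of all genes tested were positive. The smallest p for such a difference was that of Isg15, whose change was 1.10 in the first set and 0.17 in the pair numbered 4. The difference between the 2 sets was tested as the edgeR interaction of genotype with a term for libraries 4. It gave an adjusted p of 0.054 for Isg15 and called 0 of the 39, where 1.19% of all genes tested were called. DESeq2 also called 0 of the 39, where it called 1.07% of all genes tested. At an unadjusted edgeR p under 0.05 there were 12 of the 39, where 16% of all genes tested had such a p. In this test the pair numbered 4 has 1 library per genotype, so the spread comes from libraries 2 and 3 alone and that pair is assumed to vary like them. The genes with the largest changes in the pair numbered 4 were Ifi44l (0.90 in the first set and 1.01 in the pair), Ifi44 (1.27 and 0.85), Lgals3bp (1.02 and 0.63), Oas1a (0.70 and 0.44) and Mx1 (0.29 and 0.44). For Ifi27l2a the values were 0.72 and 0.01.

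**Figure D3:**
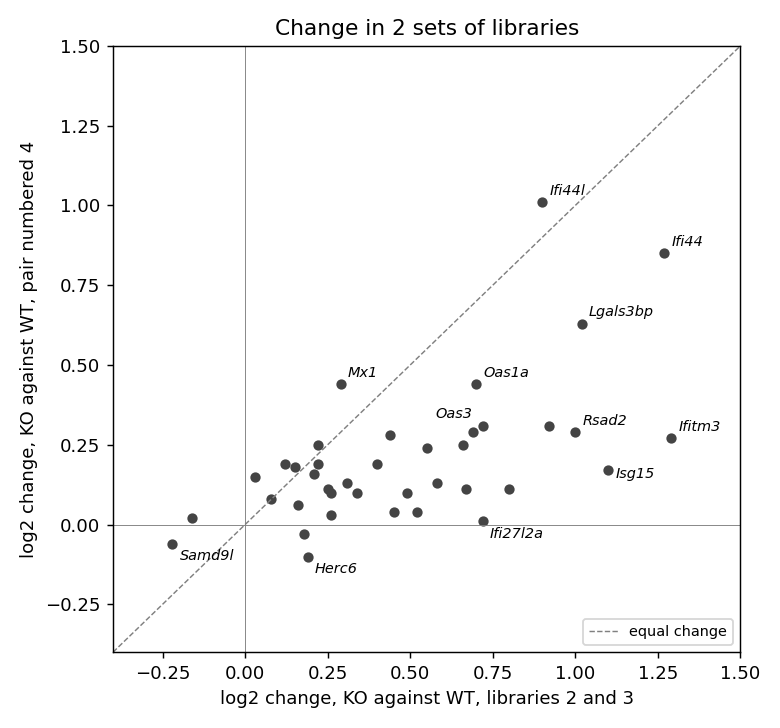
Each point is 1 of the 39 tested genes, with its log2 change in libraries 2 and 3 on the horizontal axis and in the pair numbered 4 on the vertical axis. Most points lie below the dashed line of equal change, with Isg15 at 1.10 and 0.17, while Ifi44l at 0.90 and 1.01 lies above it.

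Libraries 2 and 3 alone gave 31 of the 40 genes called higher and 1, Samd9l, lower (edgeR). Of all genes tested in that fit, 13.6% were called higher and 10.4% lower. That fit has 2 libraries per genotype.

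The other genes of the pathway were read from lists of 12 to 54 names that do not hold the 40 genes. None of the genes tested in these lists passed edgeR's threshold over all genes. Among 18 genes for type I ligands, 16 had 0 counts in every library, which allows at most 0.0679 to 0.0857 CPM per library (3 counts, counting error only). The others, Ifnk and Ifnz, had at most 5 counts in a library. The near-identical copies of the interferon alpha genes may have lost reads.

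Of 14 genes for receptors, JAK kinases, STAT factors and their regulators, all were tested and the median was 0.05. The change was positive for 11 of them (48.8% of all genes tested). Irf9, the DNA-binding subunit of ISGF3, measured 223, 193 and 181 CPM in knockout and 159.7, 173 and 158.5 CPM in wild type, without overlap. The log2 change was 0.28 (SE 0.09, edgeR adjusted p = 0.250), and with the batch term it passed (edgeR adjusted p = 0.0442).

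Of 54 other interferon-stimulated effectors, 45 were tested, with a median of 0.16. The change was positive for 36 (48.8% of all genes tested), and 16 had an unadjusted p under 0.05 (edgeR, 13.4% of all genes tested). DESeq2 called 5 higher (1.45% of its genes). Plscr1, a phospholipid scramblase, differed by 0.91 (SE 0.18, edgeR adjusted p = 0.105) and Ms4a4c by 0.48 (edgeR adjusted p = 0.158). Of 24 sensors and adaptors, 21 were tested with a median of 0.11 and 7 at such a p (13.4% of all genes tested). DESeq2 called 1 higher (1.45% of its genes). Zbp1, which binds left-handed nucleic acid, differed by 0.68 (edgeR adjusted p = 0.176) and Ifih1 (MDA5) by 0.42 (edgeR adjusted p = 0.292).

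The list of GBP and IRG GTPases, which attack the vacuoles of intracellular pathogens, had 15 of 16 genes tested and a median of 0.80. At an unadjusted p under 0.05 (edgeR) there were 11 (13.4% of all genes tested). DESeq2 called 8 higher (1.45% of its genes). Ifi47 differed by 0.80 (edgeR adjusted p = 0.114) and Gbp3 by 0.61 (edgeR adjusted p = 0.140). The mean deviation of this list was 1.09 in knockout library 2 and 0.20 and 0.08 in knockout libraries 3 and 4, and −0.56, −0.20 and −0.61 in wild type, so knockout library 2 stood far above the other 5. The part of that library in the list's values was not tested. Of 12 genes linked to interferon gamma, 9 were tested with a median of 0.39, 7 at an unadjusted p under 0.05 (edgeR), and 2 called higher by DESeq2, set against the same shares. Psmb8 and Psmb9, subunits of the immunoproteasome, differed by 0.40 and 0.54 (edgeR adjusted p = 0.163 and 0.186).

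**Figure D4:**
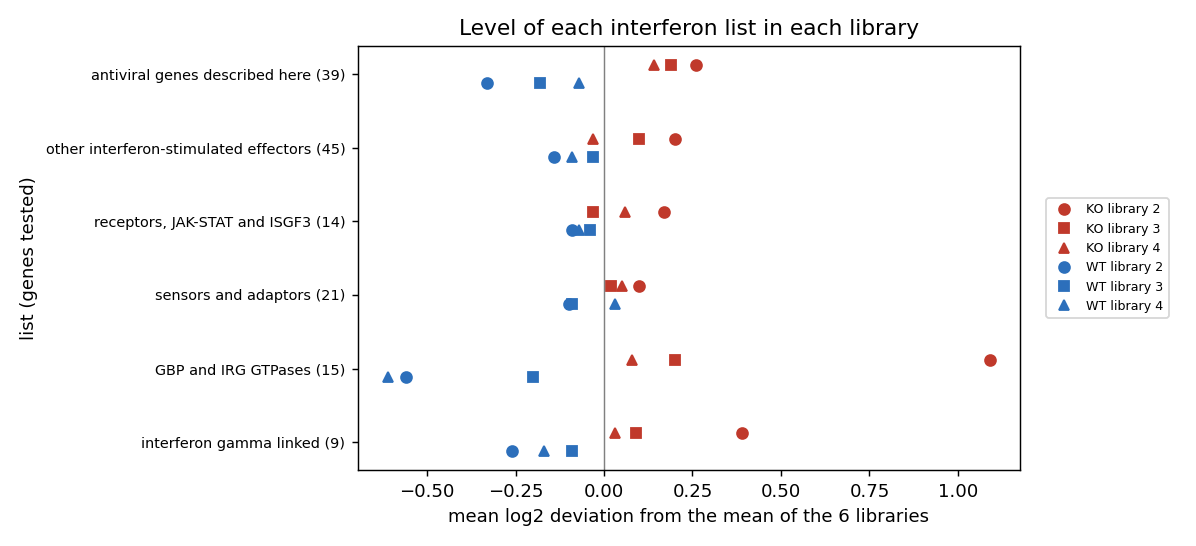
For each list of interferon genes, the points give the mean log2 deviation from the 6-library mean in each library (red, knockout; blue, wild type; circle, square and triangle, libraries 2, 3 and 4). The antiviral genes span −0.33 to 0.26 with the genotypes apart, and knockout library 2 stands at 1.09 in the GBP and IRG list.

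The 40 genes lay on 12 chromosomes, and 19 of them within 150 kb of another of the 40. The log2 changes of neighbours were 0.45, 0.57 and 0.69 for the Ifit genes, 0.75 and 0.39 for Rsad2 and Cmpk2, 0.50 and 0.31 for Slfn5 and Slfn2, and 0.33 and −0.09 for Mx1 and Mx2. Since 37 of the 39 genes tested were positive, a shared direction of neighbours says nothing of their position.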

How the data were processed

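The authors deposited raw counts of fragments, 1 row for each gene name, with no scaling. Per the file headers they were made with featureCounts 1.5.1 over exons of GENCODE vM3 (GRCm38), with paired fragments, no strand option and no option for reads that map to several places. Alignment used STAR 2.3.0e on GRCm38.p3, per the submitters' processing notes. The 6 other count columns match no sample used here and were left out. The 40 genes and all lists were chosen with earlier results of these data known. Of 41053 names, 13604 passed filterByExpr (minimum count 10) and were fitted with edgeR 4.0.16 (TMM, robust quasi-likelihood F test, Benjamini-Hochberg, threshold 0.05) in R 4.3.3, after a check on simulated counts. SE is the change divided by the square root of F. RPKM used the deposited exon length. The smallest exact permutation p for 3 against 3 libraries is 0.1, so no such test is given. Alternatives were RLE, library totals, TMM without interferon genes, 2 other filters, DESeq2 1.42.0, limma-voom 3.58.1, a replicate block, a batch term for libraries 4, libraries 2 and 3 alone, leaving out each library, and leaving out Y-linked genes and Xist. Values in every library are given for genes past the threshold, the 10 largest changes, the 4 highest levels, negative changes and the untested gene. Of each other list the 2 genes with the smallest p are named, most by their change alone, and 1 is not reported here; Oas2, Cd3e, Lck, Pecam1 and Hsph1 were added after their values were seen.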

Additional observations from a re-analysis of the deposited data

How the results depend on the processing

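The number of antiviral genes called higher was 2 with edgeR, and the same with RLE, library totals, TMM without interferon genes, and without Y-linked genes and Xist. It was 10 with no filter (0.695% of all genes in that fit), 0 with CPM of at least 1 in 3 libraries (0.149%), 13 with DESeq2, 0 with limma-voom, 13 with the batch term, and 31 when only libraries 2 and 3 were used. Leaving out 1 library gave 0 to 15. The number called lower was 0, and 1 in libraries 2 and 3 alone (10.4% of all genes). The replicate block gave 3 (0.257% of all genes). Correlations of deviations between libraries of the same number were 0.086, 0.22 and 0.394 for numbers 2, 3 and 4. Knockout library 4 correlated with wild-type libraries 2 and 3 at −0.191 and −0.345. Knockout library 2 correlated better with wild-type library 3, at 0.239. The numbers thus set libraries 4 apart but did not clearly pair libraries 2 and 3. The median change was 0.28 to 0.44 over all alternatives. The number whose change differed between the sets of libraries was 0, 5 with no filter (3.11% of all genes) and 0 to 8 when a library numbered 2 or 3 was left out (8 without knockout library 3, with 5.74% of all genes, and 0 without wild-type library 2, with 0.26%); leaving out a library numbered 4 leaves no such test. Direction was positive for 36 and negative for 1 of the 39 genes in every alternative. The exceptions were Mx2 (−0.20 to 0.00 without 1 library) and Trim25 (−0.11 to 0.22). The cause of these shifts was not tested. Low counts limit Ifitm3 (28 to 101 per library) and Cxcl10.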
